A study of Mus musculus with 8 samples.

Results

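The variable segments of the T cell receptor alpha and beta loci were followed in 8 RNA-seq libraries of sorted 8F10 T cells, which carry one transgenic receptor specific for an insulin peptide and are known as CD4 T cells. Members were all rows of the count table whose symbol starts with TRAV or TRBV. This gave 163 of 46625 rows, 128 TRAV and 35 TRBV segments, of which 104 had at least 1 count in some library. Symbols are in capitals, as in the table. All 163 matched a gene in GENCODE vM21 (assembly GRCm38, the same as mm10), which lists 130 as functional segments and 33 as pseudogenes.

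A T cell receptor is a pair of chains, and the variable part of each is put together from gene segments during development in the thymus. An alpha chain joins one TRAV segment to one TRAJ segment, and a beta chain joins one TRBV segment to a TRBD and a TRBJ segment. The joined exon is then spliced to a constant segment, TRAC for alpha and TRBC1 or TRBC2 for beta. In a normal T cell pool many V segments are in use, whereas a pool that carries one receptor uses one of each. Segments with DV in their name can also serve in delta chains.

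The donors were 8F10 mice that lack the endogenous T cell receptor alpha chain (CD45.2). Their bone marrow stem cells, depleted of T and B cells, were given to hosts of the NOD or the B16A kind (CD45.1). Irradiation was non-lethal, so hosts may keep T cells of their own. After 6 weeks the 8F10 cells were sorted by FACS from inguinal lymph nodes. NOD hosts make native insulin, while the B16A line, on the NOD background, makes insulin with a changed residue in its B chain. Every sample has the strain label NOD/ShiLtJ and no age is given. Whether the samples are separate animals is not stated, and the p-values therefore describe only how these samples spread, which may be technical. Each host had 4 libraries, 1 in each of 4 batches (NOD 1 to 4 and B16A 1 to 4 are named by host and batch).

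The 6 libraries of batches 1 to 3 had totals between 4896593 and 6137666 counts, those of batch 4 28301805 and 28094237. T cell markers were high: CD4 stood at 699 to 1204 CPM (counts scaled to a common library size) and CD3E at 1078 to 4203 CPM. CD8A stood at 0 to 3.56 CPM, although CD8B1, the other CD8 chain, stood at 62.6 to 186 CPM. The B cell list of 8 genes summed to 436 to 1276 CPM, nearly all of it IGHM. Both batch 4 libraries stand apart from the other 6 in depth and composition, so values are given per batch. In sorted bulk samples, fewer cells that use a segment and less of its RNA per cell cannot be told apart.

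The V exons of the segments that lead the counts are shown with members of the same family, since the counting of short reads depends on how they differ. They were read from GENCODE vM21 transcripts on GRCm38, plus strand, 5′ to 3′. Capitals mark bases that differ from the first sequence of each set. The beta set is TRBV13-2 (chr6:41121539-41121832), TRBV13-1 (chr6:41116175-41116468) and TRBV13-3 (chr6:41130292-41130585).
TRBV13-2: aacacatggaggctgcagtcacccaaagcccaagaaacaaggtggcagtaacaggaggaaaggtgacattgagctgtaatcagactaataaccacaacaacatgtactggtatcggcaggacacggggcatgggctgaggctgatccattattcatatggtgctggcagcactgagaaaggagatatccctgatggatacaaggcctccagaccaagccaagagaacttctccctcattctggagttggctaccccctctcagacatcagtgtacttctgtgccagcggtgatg
TRBV13-1: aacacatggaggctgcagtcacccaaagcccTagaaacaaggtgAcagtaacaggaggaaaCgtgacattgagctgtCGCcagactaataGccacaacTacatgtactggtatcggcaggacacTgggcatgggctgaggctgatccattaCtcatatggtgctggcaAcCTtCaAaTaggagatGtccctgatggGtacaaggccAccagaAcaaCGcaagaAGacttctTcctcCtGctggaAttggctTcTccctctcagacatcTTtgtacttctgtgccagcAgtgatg
TRBV13-3: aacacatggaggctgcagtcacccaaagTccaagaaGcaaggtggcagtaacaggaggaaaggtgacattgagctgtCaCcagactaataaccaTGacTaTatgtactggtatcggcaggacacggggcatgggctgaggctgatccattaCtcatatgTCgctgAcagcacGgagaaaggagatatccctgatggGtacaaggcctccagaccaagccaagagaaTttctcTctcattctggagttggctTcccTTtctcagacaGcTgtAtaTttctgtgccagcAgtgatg
TRBV13-1 differed from TRBV13-2 at 33 of 294 bases (88.8% identity) and TRBV13-3 at 24 of 294 (91.8% identity). The alpha set is TRAV5-4 (chr14:53704224-53704514) and TRAV5D-4 (chr14:53001942-53002232).
TRAV5-4: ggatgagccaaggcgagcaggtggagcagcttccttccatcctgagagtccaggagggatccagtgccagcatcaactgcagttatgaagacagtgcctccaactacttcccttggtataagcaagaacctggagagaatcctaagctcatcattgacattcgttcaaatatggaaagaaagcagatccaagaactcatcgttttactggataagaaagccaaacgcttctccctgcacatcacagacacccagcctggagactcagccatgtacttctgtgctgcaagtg
TRAV5D-4: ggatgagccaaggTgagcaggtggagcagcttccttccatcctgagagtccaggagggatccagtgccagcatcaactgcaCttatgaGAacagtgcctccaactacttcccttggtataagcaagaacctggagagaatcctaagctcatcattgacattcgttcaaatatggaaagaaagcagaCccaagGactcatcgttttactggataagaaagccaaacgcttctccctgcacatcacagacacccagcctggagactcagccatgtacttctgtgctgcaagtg
TRAV5D-4 differed from TRAV5-4 at 6 of 291 bases (97.9% identity). The V exon of TRAV5N-4 (chr14:53313132-53313422) is letter for letter that of TRAV5D-4.

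TRBV13-2, formerly called V beta 8.2, dominated the beta locus in every library. It held 238 of 289 TRBV counts in NOD 1, 275 of 378 in NOD 2, 399 of 465 in NOD 3 and 11348 of 11986 in NOD 4. In B16A hosts it held 245 of 302, 446 of 525, 438 of 509 and 8446 of 8903 TRBV counts in batches 1 to 4. These are shares of 82.4%, 72.8%, 85.8% and 94.7% in NOD hosts and of 81.1%, 85.0%, 86.1% and 94.9% in B16A hosts. Exact (Clopper-Pearson) 95% intervals, which cover counting error only, ran from 68.0% to 77.2% in NOD 2, the lowest, and from 94.4% to 95.3% in B16A 4, the highest. The share was highest in both batch 4 libraries, whose intervals did not reach those of any library of batches 1 to 3. The level of TRBV13-2 was 41.0, 51.4, 65.2 and 509 CPM in NOD hosts and 37.3, 69.6, 70.9 and 354 CPM in B16A hosts. Its counts were 5.98 to 132 times those of the next segment in the same library. Its relatives did not share this level: TRBV13-1 had 0 to 10 counts and TRBV13-3 0 to 15 counts per library. Of the 50-base windows of TRBV13-2, 99.7% occur in no other annotated gene.

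**Figure D1:**
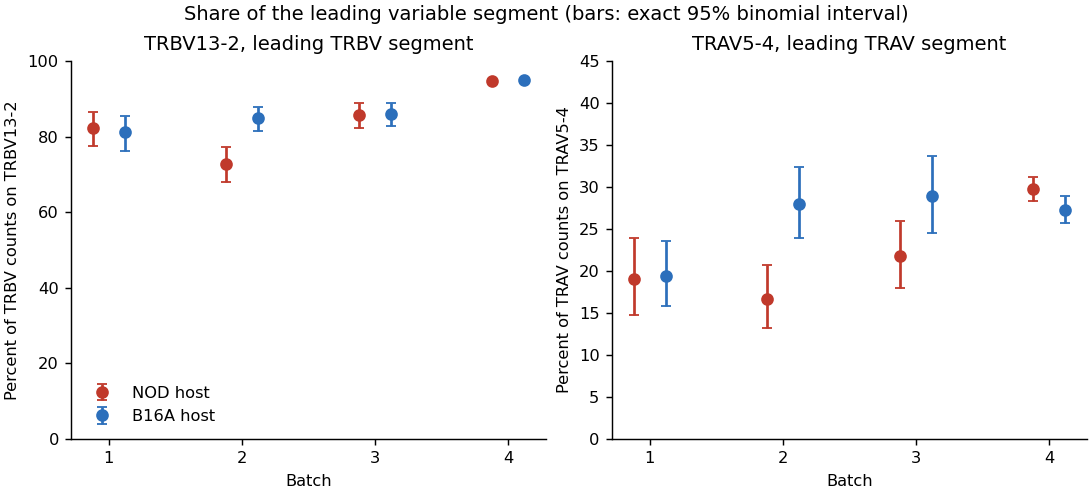
Percent of TRBV counts on TRBV13-2 (left) and of TRAV counts on TRAV5-4 (right), by batch, for NOD hosts (red) and B16A hosts (blue). Each point is 1 library and bars are exact 95% binomial intervals. TRBV13-2 holds 72.8% to 94.9% of its class, TRAV5-4 16.7% to 29.8%.

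The other 34 TRBV segments split what TRBV13-2 left, which was 51 to 103 counts per library outside batch 4, and 638 and 457 counts there. In CPM this remainder was 8.78, 19.3, 10.8 and 28.6 in NOD hosts and 8.68, 12.3, 11.5 and 19.1 in B16A hosts. TRBV31 came second in 4 of 8 libraries. This segment lies beyond the constant segments in the opposite orientation (chr6:41557691-41558452, minus strand) and joins by inversion. It held 7.27%, 12.2%, 3.44% and 0.734% of TRBV counts in NOD hosts and 3.64%, 0.952%, 1.96% and 0.618% in B16A hosts. TRBV29, TRBV16, TRBV12-1 and TRBV12-2 each came second in 1 library. TRBV29 held 0.584% to 1.73%, TRBV16 0.250% to 3.34%, TRBV12-2 0% to 1.90% and TRBV12-1 0% to 2.86%.

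No further beta segment reached 3% of the class in any library. TRBV13-1 held at most 1.59%, TRBV19 at most 1.51% and TRBV15 at most 1.32%. TRBV2 had 2, 10, 8 and 11 counts in NOD hosts and 0, 0, 4 and 0 in B16A hosts, too few to pass the filter for testing, and the groups overlapped. Mean shares over the 8 libraries were 3.85% ± 4.02 (SD, n = 8) for TRBV31, 0.977% ± 0.355 for TRBV29 and 0.920% ± 1.02 for TRBV16. The ranges of mean ± SD overlapped, and no test between segments within libraries was run. Dividing counts by exon length, which ran from 155 to 595 bases over the members, kept the order of the first 6 TRBV segments.

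The TRAV counts had no segment of that weight. TRAV5-4 was first in all 8 libraries, with 58, 68, 94 and 1219 counts in NOD hosts and 83, 129, 112 and 812 in B16A hosts. It held 19.0%, 16.7%, 21.8% and 29.8% of TRAV counts in NOD hosts and 19.4%, 28.0%, 28.9% and 27.3% in B16A hosts. In batches 1 and 4 the hosts lay close together, and in batches 2 and 3 the NOD library was lower. TRAV5-4 counts were 1.52 to 4.31 times those of the next segment. Its level was 9.98, 12.7, 15.4 and 54.6 CPM in NOD hosts and 12.6, 20.1, 18.1 and 34.0 CPM in B16A hosts. Divided by exon length it stayed first, with 26.2% of the class on average against 23.9% by counts.

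Behind it came TRAV14-1, second in 4 libraries, and TRAV14D-3-DV8 and TRAV3-3, each second in 2. Their mean shares were 9.60% ± 4.96, 8.58% ± 2.32 and 6.91% ± 2.46 (SD, n = 8). Here too the ranges of mean ± SD overlapped, and the segments were not tested against each other. TRAV14-1 stood out in batch 4, with 19.6% of TRAV counts in NOD 4 and 13.4% in B16A 4 against 4.86% to 10.8% in batches 1 to 3. TRAV14D-3-DV8 held 5.15% to 11.2% and TRAV3-3 3.25% to 11.3%. TRAV17 also had more of the class in batch 4 (5.69% and 8.10%) than outside it (0.868% to 2.62%).

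The smaller TRAV segments differed in how they sat across batches. TRAV13N-4 held 0.937% to 7.59% in batches 1 to 3 but 0.269% and 0.0672% in batch 4. TRAV7-1 likewise held 1.47% to 4.68% against 0.464% and 0.874%. TRAV21-DV12 (1.72% to 8.10%), TRAV15-1-DV6-1 (0.703% to 7.81%) and TRAV19 (0.651% to 4.22%) overlapped between batch 4 and the rest. The 10 leading TRAV segments together held 51.0% to 72.2% of TRAV counts outside batch 4, where they held 80.9% and 78.9%. The 10 leading TRBV segments held 91.4% to 98.2%.

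**Figure D2:**
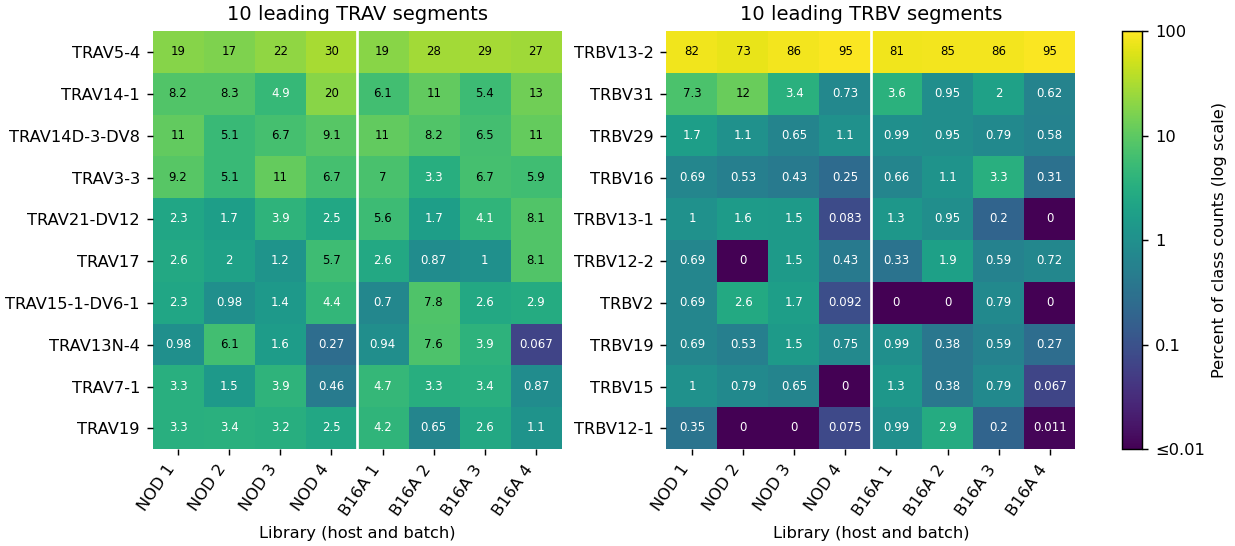
Percent of class counts on the 10 leading TRAV segments (left) and TRBV segments (right), 1 column per library, with the value in each cell and colour on a log scale. TRBV13-2 holds 72.8% to 94.9% in every column, while TRAV counts are spread with TRAV5-4 first in all 8.

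The effective number of segments (the inverse Simpson index, which is 1 when a single segment holds all counts) put the alpha and beta loci far apart. For TRBV it was 1.46, 1.83, 1.35 and 1.12 in NOD hosts and 1.51, 1.38, 1.35 and 1.11 in B16A hosts. For TRAV it was 13.7, 16.8, 12.7 and 6.77 in NOD hosts and 13.5, 8.63, 9.36 and 8.04 in B16A hosts. At least 1 count was seen for 42 to 60 TRAV and 17 to 25 TRBV segments per library. Thinned to the 4896593 counts of the shallowest library, the expected numbers were 40.0 to 51.1 TRAV and 13.2 to 23.3 TRBV segments.

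A count on a V segment requires that a read can be placed there. Each member's annotated transcripts were therefore broken into all windows of 50 bases, the read length, and each window was looked up on both strands of all GENCODE vM21 transcripts. The TRAV locus holds copied stretches, marked D and N in the symbols, and 38 of the 128 TRAV V exons are identical to that of another TRAV segment, against 0 of 35 for TRBV. Of the 163 members, 43 (42 TRAV and TRBV8) had no window of their own, and 0 of these 43 had a count in any library. Of the 85 members with at least 50% unique windows, 81 had a count. Between these limits 23 of 35 had one.

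The 59 members at 0 in all 8 libraries thus include the 43 without a unique window and 5 more with under 10%. A count of 0 allows up to 3 counts, which is 0.457 to 0.561 CPM per library outside batch 4, where it is 0.134 and 0.126 CPM. For a member without unique windows that limit does not bound its RNA, since the counting rule for shared reads is not given in the sources used here. Of the 11 others at 0, 7 had 11.0% to 17.7% unique windows. The remaining 4 were TRAV16 (51.8% unique), TRAV8-2 (64.6%), TRAV15-3 (93.4%) and TRBV10 (100%), of which all but TRAV16 are annotated as pseudogenes. TRBV10 is 1 of 6 members whose exons overlap those of another gene.

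These limits touch the leading alpha segments. TRAV5-4 had 55.8% unique windows and shared the rest with TRAV5D-4 and TRAV5N-4, which had none of their own and 0 counts. TRAV14D-3-DV8 had 61.2% and TRAV3-3 60.0%, whereas TRAV14-1 had 95.1%. TRAV5-4 counts are therefore those of reads assigned to this copy of mm10, a C57BL/6J sequence, and NOD alleles were not compared. Of the TRAV copies marked D, 13 of 39 had a count, of those marked N 10 of 34, and of those with neither letter 48 of 55. TRAV11 and TRAV11D, the segments used by invariant NKT cells, had 0 unique windows and 0 counts, and so give no reading. TRAV1, used by MAIT cells, had 0 to 15 counts per library with 100% unique windows.

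**Figure D3:**
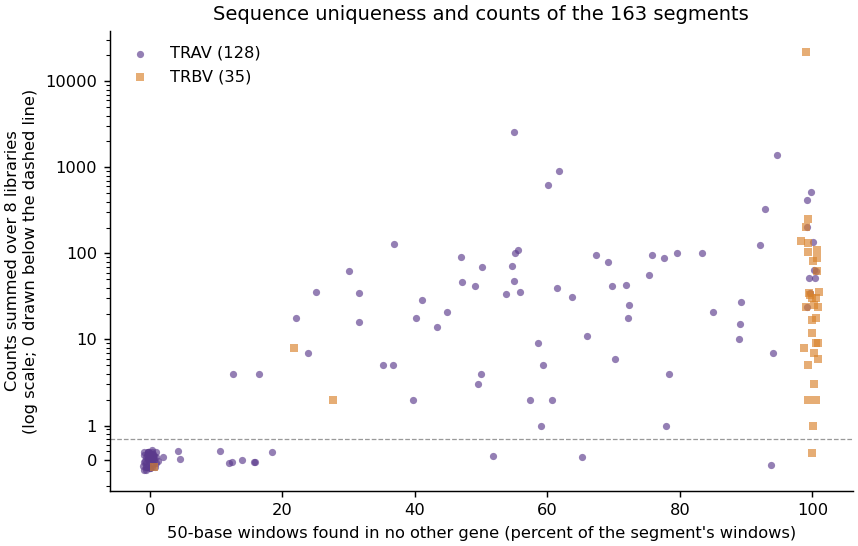
Counts of each segment summed over the 8 libraries (vertical axis, log scale, 0 drawn below the dashed line) against the percent of its 50-base windows found in no other gene (horizontal axis), for 128 TRAV (circles) and 35 TRBV (squares) segments, jittered slightly. All 43 segments at 0% on the horizontal axis lie at 0 counts.

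The minor segments differed between batch 4 and the rest. Over batches 1 to 3, 11 of 13 TRBV pseudogenes had a count, with 67 counts in all, and in batch 4 only 1 of them did, although batch 4 was sequenced more deeply. They held 1.73%, 3.70%, 1.08% and 0.159% of TRBV counts in NOD hosts and 5.63%, 2.10%, 2.95% and 0.0112% in B16A hosts. These shares stood for 5, 14, 5 and 19 counts in NOD hosts and 17, 11, 15 and 1 in B16A hosts. The low share in NOD 4 thus came with a TRBV total of 11986 counts, and its 19 pseudogene counts all lay on 1 pseudogene. These counts are not scaled to depth. In B16A 4 the pseudogene counts were also fewer, 1 against 11 to 17 in B16A 1 to 3. The number of functional TRBV segments with a count, not adjusted for depth, was 21 of 22 over batches 1 to 3 and 21 of 22 in batch 4. Thinned to the shallowest library, all TRBV segments, pseudogenes included, numbered 17.3 in NOD 4 against 16.1 to 18 in NOD 1 to 3. In B16A 4 they numbered 13.2 against 19.5 to 23.3 in B16A 1 to 3. Shares fell beyond the pseudogenes. All TRBV segments other than TRBV13-2 held 13.9% to 27.2% of TRBV counts outside batch 4, where they held 5.32% and 5.13%. Of the 20 TRAV pseudogenes 10 had a count in batches 1 to 3 and 8 in batch 4, and they held 2.58% to 6.89% of TRAV counts in the former and 2.15% and 2.76% in the latter.

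Immunoglobulin V segments, 344 genes that T cells do not join, were lower in batch 4 in CPM. They summed to 28.2, 81.5 and 27.5 CPM in NOD hosts and 33.6, 47.3 and 40.3 CPM in B16A hosts in batches 1 to 3, spread over 86 to 131 segments per library. In batch 4 they summed to 0.851 and 0.377 CPM. In each library of batches 1 to 3 the immunoglobulin sum exceeded the sum over all TRBV segments other than TRBV13-2 (8.68 to 19.3 CPM). That TRBV sum was 28.6 CPM in NOD 4 and 19.1 CPM in B16A 4, so it was lower in batch 4 as a share but not in CPM. A list of 6 myeloid and dendritic cell markers was also lower in batch 4, at 4.48 and 5.49 CPM against 34.4 to 56.7 CPM outside it. So was a list of 3 erythroid markers, at 0.538 and 0.210 CPM against 1.68 to 4.99 CPM. A list of 3 NK cell markers went the other way, at 39.4 and 63.7 CPM in batch 4 against 4.47 to 15.5 CPM outside it. Of the B cell markers MS4A1, CD22 and PAX5 were lower in batch 4, whereas the sum of the 8 was not. The part of such cells in the minor TRAV and TRBV counts was not tested.

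**Figure D4:**
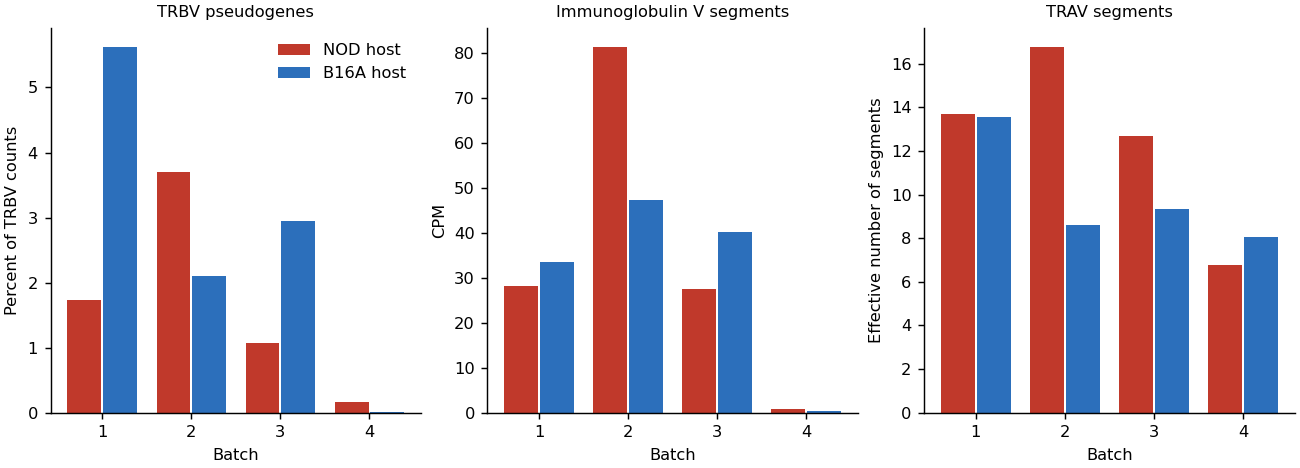
Percent of TRBV counts on pseudogenes (left), CPM of immunoglobulin V segments (middle) and effective number of TRAV segments (right) for each library, by batch, NOD hosts in red and B16A hosts in blue (1 bar per library, no error bars). Batch 4 is lowest in the left and middle panels, with 0.159% and 0.0112%, and 0.851 and 0.377 CPM. The left panel is a share of TRBV counts, and NOD 4 had 19 pseudogene counts against 5, 14 and 5 in NOD 1 to 3. B16A 4 had 1 against 17, 11 and 15 in B16A 1 to 3. These counts are not scaled to depth.

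The minor TRAV profile was compared between libraries as the summed smaller share, segment by segment, with TRAV5-4 left out. It was 76.2% for the batch 4 libraries against each other. Within batches 1 to 3 it was 63.3% to 77.0% for libraries of the same batch, 57.9% to 73.4% for the same host in other batches and 60.9% to 77.3% for the other host in other batches. Against batch 4 it was 44.9% to 64.0%. The ranges for libraries of the same host and of different hosts overlapped. Sampling of 247 to 344 counts per library in batches 1 to 3 enters these values.

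Position along the locus was read as distance from TRAC. The 6 TRAV segments within 200 to 400 kb held 6.94% to 13.2% of TRAV counts over the 8 libraries. The 41 segments 1200 to 2000 kb away held 11.4% to 21.6% outside batch 4, where they held 3.66% and 3.73%. Among the 12 of these with at least 50% unique windows the shares were 11.1% to 18.1% and 3.13% and 2.96%. The segments 400 to 800 kb away, which include TRAV5-4, TRAV14-1, TRAV3-3 and TRAV17, held 48.3% to 59.2% outside batch 4, where they held 73.2% and 66.2%. All TRAV segments summed to 183 and 125 CPM in batch 4 against 52.5 to 76.3 CPM outside it. A lower share in batch 4 need therefore not be a lower level.

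The comparison of hosts asks whether 8F10 cells from hosts with native insulin differ from those of hosts with the changed insulin. TRBV13-2 held 83.9% ± 9.06 of TRBV counts in NOD and 86.7% ± 5.81 in B16A hosts (SD, n = 4 each). The difference was within the spread (exact two-sided permutation test over 70 arrangements, p = 0.686, adjusted over 2 share tests p = 0.686). TRAV5-4 held 21.8% ± 5.71 of TRAV counts in NOD and 25.9% ± 4.37 in B16A hosts (exact two-sided permutation test, p = 0.343, adjusted p = 0.686). The smallest p this design allows is 0.0286. Within batches 1 to 4 the NOD library minus the B16A library gave 1.23, -12.2, -0.245 and -0.190 percentage points for TRBV13-2 and -0.42, -11.3, -7.18 and 2.47 for TRAV5-4. For TRBV13-2 the direction rested on batch 2: without NOD 2 the difference of means was 0.86.

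Across all genes edgeR tested 14607, and 12 of the 163 members passed its filter on low counts (10 TRAV and 2 TRBV). None of the 12 was called at an adjusted p under 0.05, nor was any other gene (0% called), and 1 of the 12 had an unadjusted p under 0.05, against 0.233% of all tested genes (34). DESeq2 without batch also called 0 members (0% of genes), as did edgeR without batch 4 and with batch as a term (32 of 15716 genes, 0.204%). DESeq2 with batch called 0 members too (26 of 3513 genes, 0.74%). It gave only 1 member an adjusted p, so it could not have called the others. The median log2 fold change, NOD over B16A host, was 0.25 over the 12 and 0.03 over all tested genes, and 9 of 12 were positive. This lean did not hold without batch 4, where the members' median was -0.11 with 5 of 13 positive, or without NOD 4 (-0.018, 7 of 15), and with the replicate block 7 of 12 were positive (median 0.093). The median standard error over the 12 was 0.75 on the log2 scale, so the lack of calls does not show that the hosts are alike. The change was 0.33 (standard error 1.01) for TRBV13-2 and 0.13 (standard error 0.60) for TRAV5-4 on the log2 scale (edgeR, adjusted p = 0.9999 for both). With the batch as a replicate block these were 0.04 (standard error 0.16) and -0.10 (0.24), and without batch 4 they were -0.17 and -0.41.

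TRBV31 was the 1 tested segment whose CPM did not overlap between hosts. As a share of TRBV counts it did overlap, with 3.44% in NOD 3 below 3.64% in B16A 1. It stood at 3.61, 8.60, 2.61 and 3.94 CPM in NOD hosts and 1.67, 0.780, 1.62 and 2.30 CPM in B16A hosts, from 21, 46, 16 and 88 against 11, 5, 10 and 55 counts. All 4 NOD values lay above all 4 B16A values, which was so for 0.205% of tested genes (30), with 0.39% the other way and 0.596% in all. The means were 4.69 ± 2.67 and 1.59 ± 0.626 CPM (SD, n = 4 each). On the log2 scale the change was 1.54 (standard error 0.65), which did not pass (edgeR, unadjusted p = 0.0434, adjusted p = 0.9999). Within batches 1 to 4 the log2 ratio was 1.11, 3.46, 0.69 and 0.77. Batch 2 carried the most: without NOD 2 the log2 fold change was 1.08. The lowest adjusted p over the alternatives was 0.358 (edgeR without batch 4 and with batch as a term).

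Of the others, TRAV3-3 was higher in the NOD library of all 4 batches, as were 7.43% of tested genes, and 7.39% were lower in all 4. It stood at 4.82, 3.93, 8.01 and 12.3 CPM in NOD hosts and 4.57, 2.34, 4.21 and 7.33 CPM in B16A hosts, and the hosts overlapped. The log2 fold change was 0.65 (standard error 0.54, edgeR adjusted p = 0.9999), with 0.24 when NOD 4 and 1.00 when B16A 4 was left out. TRAV19 had a log2 fold change of 0.84 (standard error 0.75). In the other direction TRAV21-DV12 had -0.83 (standard error 0.80) and TRAV7-1 -0.41 (standard error 0.73), neither of which passed. TRAV14-1 had 0.66 (standard error 0.87) and -0.11 without batch 4, TRAV14D-3-DV8 0.00 (0.60) and TRAV15-1-DV6-1 -0.02 (1.05). TRAV8D-1 and TRAV22, tested but outside the 10 leading segments, had 0.17 (0.88) and 0.35 (0.75).

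**Figure D5:**
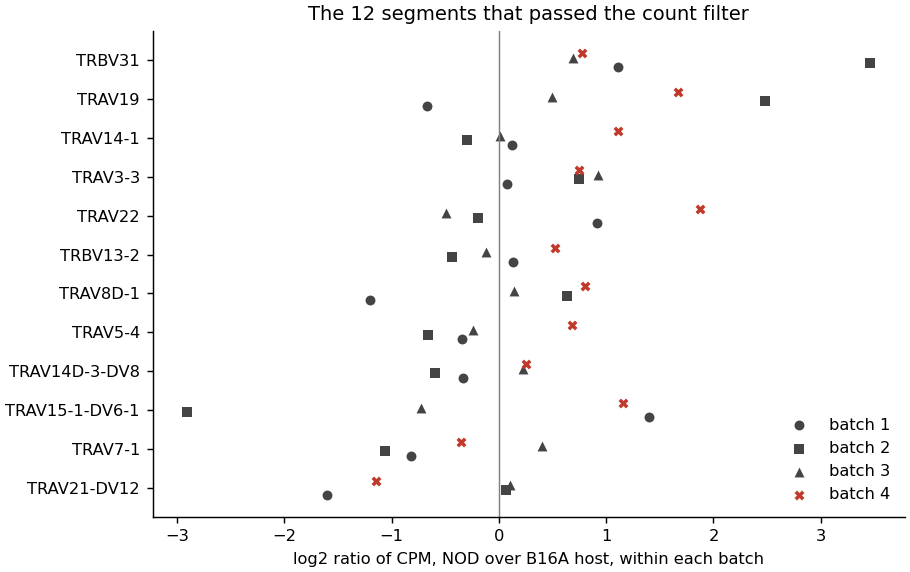
Within-batch ratio of NOD to B16A CPM (log2 scale) for the 12 segments that passed the count filter. Each marker is 1 pair of libraries, so no error is drawn. Batches 1 to 3 have grey markers of different shape and batch 4 red ones. TRBV31 and TRAV3-3 are the 2 segments with all 4 markers above 0.

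The other parts of the receptor loci were read beside the V segments. TRAC, the alpha constant segment, ranged from 258 to 404 CPM outside batch 4, where it reached 972 and 847 CPM. TRBC1 and TRBC2, the beta constant segments, summed to between 1222 and 4419 CPM outside batch 4 and to 4077 and 3909 CPM there. Per 100 TRAC counts there were 15.5 to 29.5 TRAV counts outside batch 4, and 18.9 and 14.7 there. For TRBV and the beta constant segments the numbers were 1.65 to 6.70 and 13.2 and 9.54. The V to C ratio was thus higher in batch 4 for beta, and within or just under the range of the other batches for alpha. None of the 4 constant genes, the delta one included, was called between hosts.

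Counts were spread more evenly over the joining segments than over the TRBV segments. Per TRAJ count there were 0.151 to 0.269 TRAV counts outside batch 4, and 1.13 and 0.728 there. How many joining segment counts come from joined chains was not tested, so the spread of counts is not read as use. TRBJ2-1 led the 14 TRBJ segments by mean share, with 15.1% to 31.5% of TRBJ counts outside batch 4, where it held 10.8% and 11.7%. TRBJ1-1 and TRBJ1-2, chosen after their values were seen, had the highest TRBJ levels in batch 4, at 114 and 108 CPM in NOD 4 and 91.6 and 95.2 CPM in B16A 4. TRAJ18 led the 60 TRAJ segments by mean share and was first in 6 libraries. It held 9.87% to 25.3% of TRAJ counts outside batch 4, where it held 11.4% and 10.4% (411 and 424 counts). It is the joining segment of invariant NKT cells. ZBTB16, a transcription factor of those cells, had 2.12 to 16.5 CPM outside batch 4, where it had 0 counts. The NKT list of 2 genes, ZBTB16 and KLRB1C, summed to 2.61 to 16.5 CPM outside batch 4 and to 0 CPM there. Whether such cells contribute TRAJ18 counts was not tested. TRDC, the delta constant segment within the alpha locus, ranged from 49.5 to 83.3 CPM outside batch 4, where it reached 297 and 234 CPM. TRDV2-2 held 47.1% to 76.7% of the counts of the 6 TRDV segments. The 14 gamma chain genes summed to 1.25 to 8.79 CPM.

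Of the 13 recombination genes fixed as a list, 10 were tested and 0 called. RAG1 and RAG2, the enzyme that cuts the segments, each had 0.490 to 2.65 CPM outside batch 4, where both had 0 counts. DNTT, which adds bases at the joins, ranged from 12.3 to 20.6 CPM outside batch 4, where it reached 58.4 and 26.9 CPM. The 7 trypsinogen and related protease genes that lie among the TRBV segments summed to 0.624 to 2.80 CPM, and none passed the filter.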

How the data were processed

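Per the labels' protocols, SeqPlex amplification of sorted-cell RNA was followed by sequencing of single 50-base reads. The authors deposited raw counts, 1 table with 46625 gene symbols. The submitters' processing notes name STAR, HTSeq, DESeq2 and mm10. No version, setting, annotation or strand rule is given in the sources used here. Samples were grouped by their titles. The labels give a batch number, shared by 1 library of each host, which pairs the samples (Pearson r of deviations from host means over tested genes: 0.57 to 0.917 within a batch, 0.411 to 0.702 across batches 1 to 3, with NOD 2 closest to B16A 3). The members and lists were chosen with earlier results of these data known.

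The test was that of edgeR 4.0.16 under R 4.3.3 (glmQLFit robust, glmQLFTest, filterByExpr on host, TMM, no batch term), adjusted by Benjamini-Hochberg over all tested genes at 0.05. CPM uses TMM-adjusted library sizes. DESeq2 1.42.0, other scaling factors, no filter, batch as a term, each library left out, and batch 4 left out were alternatives. Leading-segment shares were compared by exact permutation (scipy 1.17.1). Identity was computed by global alignment (Biopython 1.88). Named segments are the 10 of each class with the largest mean share, any with an adjusted p under 0.05, and the 2 per direction with the smallest p; TRAV8D-1, TRAV22, TRAV1, TRAV11 and those at 0 with unique sequence were added after their values were seen.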

Additional observations from a re-analysis of the deposited data

Results flagged for a closer look

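TRBV2 held 0.786% of TRBV counts in B16A 3 (4 counts) and 0% in the other 3 B16A libraries. With 3 libraries at 0, any count in the fourth sets it apart, so the values show only 4 of 509 counts against 0 of 302, 0 of 525 and 0 of 8903, where a 0 allows up to 3 counts. This was 1 of 48 sets of 4 libraries examined. With 3 libraries at 0 the nominal chance rate of about 1 in 20 does not apply.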

How the results depend on the processing

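No TRAV or TRBV segment was called between hosts under any of the 16 alternatives (edgeR with other scaling, no filter, batch as a replicate block, without batch 4 or without each library; DESeq2 with and without batch). DESeq2 with batch gave only 1 member an adjusted p. Over all genes 26 were called by DESeq2 with batch and 32 by edgeR without batch 4 and with the batch term, against 0 otherwise. The 2 share differences gave the same values as replicate blocks, -4.11 points for TRAV5-4 (exact paired sign-flip test, p = 0.375) and -2.85 for TRBV13-2 (p = 0.625), where the smallest p is 0.125. Leaving out 1 library, the TRBV13-2 difference ran from -6.45 to 0.86 and that of TRAV5-4 from -6.77 to -2.40 points. As CPM of the library total without TMM adjustment, in place of shares, the differences were 18.5 for TRBV13-2 and -0.165 for TRAV5-4. With at least 10 counts the mean number of segments was 17.8 for TRAV and 5.25 for TRBV, against 51.2 and 19.8 with at least 1. Without the leading segment the effective numbers were 16.5 and 8.79, against 11.2 and 1.39.

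The log2 fold changes of 8 of the 12 tested segments, none called, changed sign in places, and the cause was not tested. Without batch 4, and then also with the batch term, they were -0.11 and -0.061 for TRAV14-1, -0.25 and -0.23 for TRAV14D-3-DV8, -0.41 and -0.41 for TRAV5-4 and -0.17 and -0.14 for TRBV13-2. TRAV22 had -0.043 in the first of these fits and TRAV8D-1 -0.058 in the second. With the replicate block they were -0.091 for TRAV14D-3-DV8 and -0.10 for TRAV5-4, with DESeq2 and batch -0.080 and -0.10, and with upper-quartile factors -0.083 and -0.020. Without a filter TRAV14D-3-DV8 had -0.0082 and TRAV15-1-DV6-1 0.060. Leaving out 1 library gave ranges of -0.82 to 1.37 for TRAV14-1, -0.74 to 0.48 for TRAV14D-3-DV8, -1.54 to 0.53 for TRAV15-1-DV6-1, -1.37 to 0.027 for TRAV21-DV12, -0.78 to 0.50 for TRAV5-4, 0.24 to 1.00 for TRAV3-3, 0.47 to 1.24 for TRAV19, -0.80 to -0.18 for TRAV7-1, -0.50 to 0.46 for TRAV8D-1, 0.12 to 0.80 for TRAV22 and -1.39 to 1.54 for TRBV13-2. Depth limits every share: there were 289 to 525 TRBV and 305 to 461 TRAV counts per library in batches 1 to 3.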
